A study of Mus musculus with 12 samples.

Results

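Pachytene spermatocytes (pacSC), germ cells in the long stage of meiotic prophase in which homologous chromosomes are fully paired, were set against primitive type A spermatogonia (priSG-A), the mitotic germ cells from which they descend. The comparison used 4 of the 12 libraries of the series, pacSC replicates 1 and 2 and priSG-A replicates 1 and 2. Every gene symbol with at least 1 FPKM (fragments scaled to transcript length and to the mapped fragments of the library) in at least 2 of these 4 libraries was tested, which gave 13316 of 22552 symbols. The pacSC came from male F1 offspring of DBA/2 and C57BL6 mice at 17 days postpartum and the priSG-A from the same cross at 7 days. All 4 preparations were freshly isolated by STAPUT, a sedimentation of cells through an albumin gradient that sorts them by size, from testes in the first wave of spermatogenesis, and none was treated further. Total RNA was sequenced. Preleptotene spermatocytes (plpSC, 17 days) and round spermatids (rST, 60 days), with 2 libraries each, entered the same model and are quoted only for orientation. Nothing says that the replicates were separate animals; the p-values therefore measure only how far these libraries differ, which may be technical. Stage and age differed together and cannot be told apart.

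Type A spermatogonia renew themselves or, under retinoic acid, differentiate and enter meiosis, where chromosomes replicate, break, pair through the synaptonemal complex and exchange strands. During pachytene the X and Y chromosomes are enclosed in a silenced domain, the sex body, in the process called meiotic sex chromosome inactivation. The transcription factor A-MYB, encoded by Mybl1, then drives the pachytene piRNA program and many meiotic genes, and mRNAs for acrosome, flagellum and sperm metabolism begin to accumulate well before the haploid stages that use them.

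Depth, estimated from the width of the deposited bounds, came to 25035858 and 28705005 effective fragments in pacSC, against 27164132 and 30514026 in priSG-A. Across the tested genes the replicates correlated with r = 0.963 for pacSC and r = 0.986 for priSG-A, against 0.365 to 0.489 between libraries of different stages. The short RNAs Rpph1, Rmrp and Rprl3 together took 6.43 and 3.9% of the FPKM sum in pacSC, against 18.4 and 22.2% in priSG-A. Within each group 1 library stood apart in some genes. In pacSC, replicate 2 held 5180 FPKM of 8 nuclear condensation genes, against 235.7 FPKM in replicate 1, and 1196 FPKM of 12 Leydig cell genes, against 59.6 FPKM. In priSG-A, replicate 1 held more RNA of acrosome, flagellum and nuclear condensation genes than replicate 2, with 147.5 and 33.2 FPKM of the last. The testis lactate dehydrogenase Ldhc had 85 and 2.13 FPKM in the 2 replicates. Synaptonemal complex and axis genes were not higher in priSG-A replicate 1, with 656 and 717 FPKM, against 1992 and 1482 FPKM in pacSC. Both priSG-A sums were already high, so they cannot show a small share of RNA from later stages. Such a share was not tested. The plpSC libraries, which bear only on the estimate of the spread, differed from each other in acrosome genes, with 4159 and 1596 FPKM. Flagellum genes differed likewise, and the Leydig cell sums were close, at 140.3 and 145.9 FPKM. The fit without plpSC called 3897 genes higher and 7460 lower. Sertoli cell genes, from the somatic cells that surround the germ cells, summed to 230.3 and 234 FPKM in pacSC, against 3593 and 3654 FPKM in priSG-A. In such bulk samples fewer cells of a type and less RNA per cell cannot be told apart, and the part that these other cell types had in the results was not tested. Counts that lead a result were also taken without priSG-A replicate 1 and pacSC replicate 2, an alternative chosen after seeing the data. It leaves 1 library in each stage compared, which is assumed to vary like the plpSC and rST libraries that then give all of the spread, so its counts are a description and no replicate check. A fit that leaves out 1 library makes the same assumption for the stage left with 1.

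**Figure D1:**
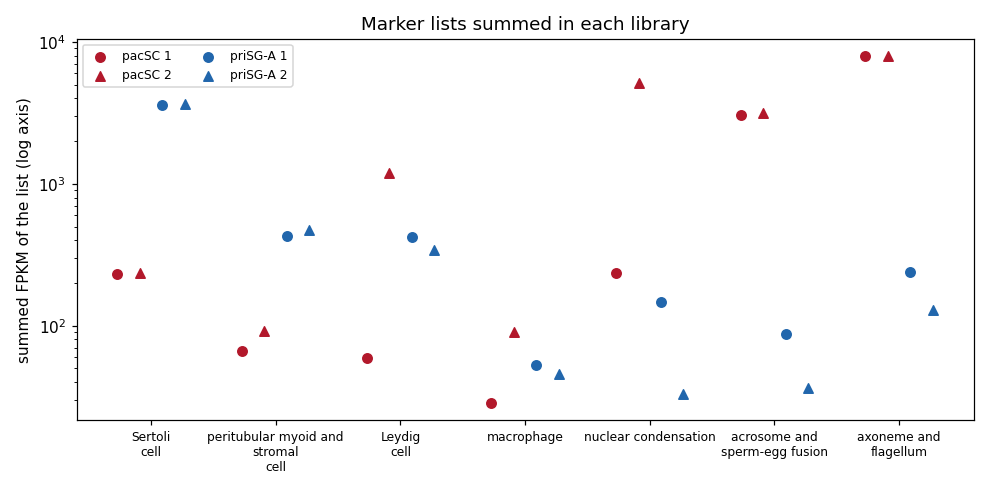
Summed FPKM (log axis) of 7 marker lists in each library, with pacSC in red and priSG-A in blue, circles for replicate 1 and triangles for replicate 2. The Sertoli cell sum is 230.3 and 234 FPKM in pacSC, against 3593 and 3654 FPKM in priSG-A, and pacSC replicate 2 stands above the other 3 libraries in Leydig cell and nuclear condensation genes.

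The markers of both stages followed the labels. Piwil1, the PIWI protein of pachytene piRNAs, had 104 and 108 FPKM in pacSC, against 2.1 and 1.32 FPKM in priSG-A (log2 change 5.32, SE 0.24, adjusted p = 1.6e-05; values are given for replicate 1 and then replicate 2 throughout, and changes are pacSC minus priSG-A on log2(FPKM + 1)). The testis HSP70 chaperone Hspa2, which acts in spermatocytes, had 977 and 888 FPKM in pacSC, against 32.2 and 22.4 FPKM in priSG-A (log2 change 5.06, SE 0.41, adjusted p = 2.83e-05). Zbtb16, the transcription factor PLZF of undifferentiated spermatogonia, had 0.294 and 0.718 FPKM in pacSC, against 16.5 and 13.8 FPKM in priSG-A (log2 change -3.43, SE 0.24, adjusted p = 2.2e-05). In each of these 3 genes the pacSC libraries lay on 1 side and the priSG-A libraries on the other, without overlap. The X-linked RNA Xist stayed far below 1 FPKM in all 4 libraries and was not tested.

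Most genes differed between the stages, 10640 of those tested (79.9%) at a Benjamini-Hochberg adjusted p under 0.05 in limma. Of these, 3573 genes were higher in pacSC (26.8% of those tested) and 7067 were lower (53.1%). The fits without priSG-A replicate 1 and pacSC replicate 2 called 2555 genes higher and 5405 lower. With a change of at least 2-fold on the log2(FPKM + 1) scale, which understates the change of low genes, 2925 genes were higher (22%) and 5675 were lower (42.6%). Rises were fewer and steeper: 277 of the called genes were at least 32-fold higher (2.08%) and 13 were at least 32-fold lower (0.0976%). Genes called higher took 56.6 and 60.5% of the FPKM sum in pacSC, against 9.13 and 8.27% in priSG-A, and genes called lower took 17.2 and 16.4% in pacSC, against 59.6 and 60.5% in priSG-A. There were 1092 genes with at least 1 FPKM in both pacSC libraries and less in both priSG-A libraries, and 2403 genes with the reverse pattern. The libraries of the 2 stages did not overlap in 12342 genes (92.7%).

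The balance of rises and falls changed with the scaling. The median gene changed by -0.71 on the values as deposited, by -0.36 after quantile normalization and by -0.17 after centring each library on its median, and the changes below are to be read relative to the median of the values as deposited. Of all calls, 33.6% were higher in pacSC as deposited, 41.2% after quantile normalization and 45.7% after centring, with 4504 genes higher and 5353 lower in the last. Every list median below stands beside the -0.71 of all tested genes, and every count beside 26.8% of tested genes called higher and 53.1% called lower.

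**Figure D2:**
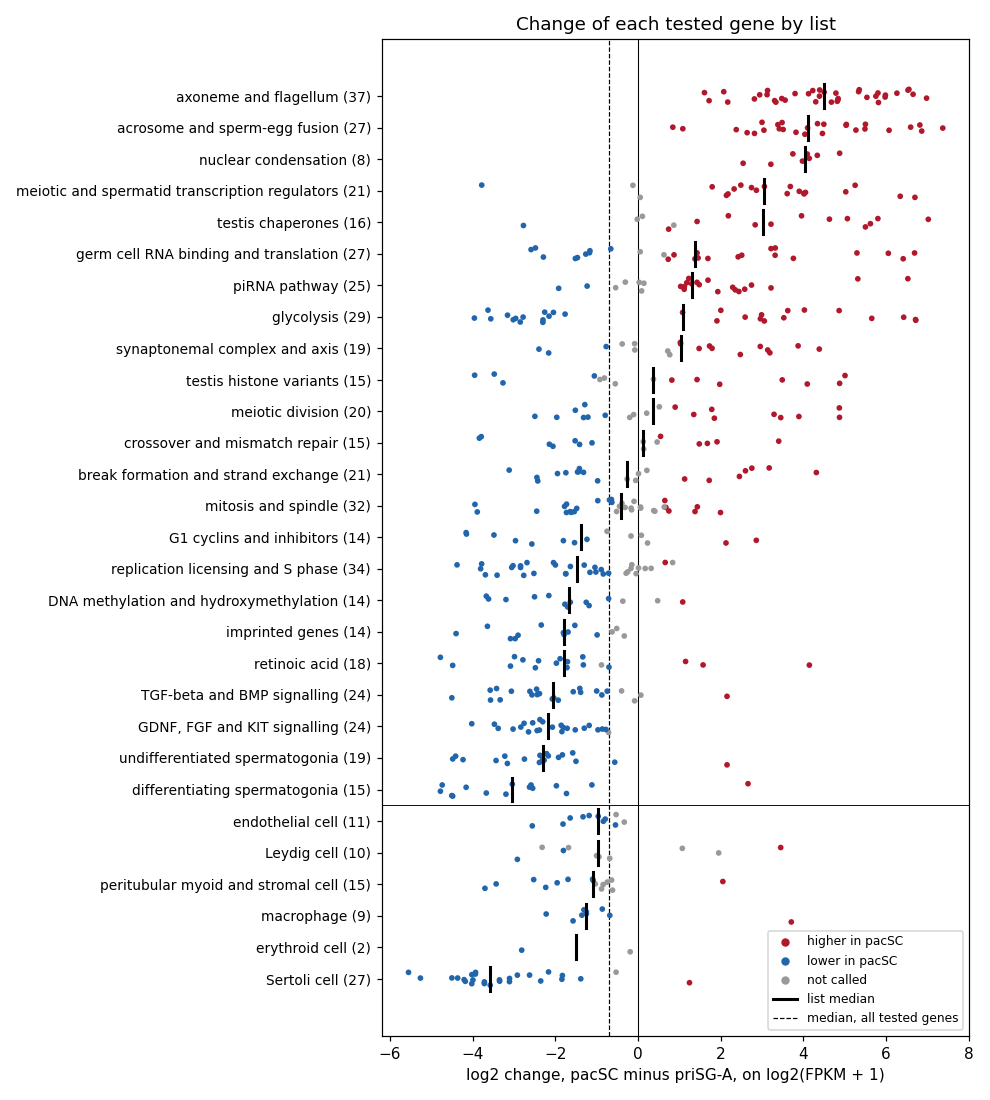
Change in log2(FPKM + 1), pacSC minus priSG-A, of every tested gene of 29 lists, with the number of tested genes in brackets, red for called higher in pacSC, blue for called lower and grey for not called. Black bars are list medians and the dashed line is the median of all tested genes, -0.71; the axoneme list has the highest median, 4.50, and the Sertoli cell list the lowest, -3.57.

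Nearly all genes of spermatogonial identity were lower in pacSC. Of 19 tested genes of undifferentiated spermatogonia, 18 were lower and 1 was higher (median -2.30), and of 15 genes of differentiating spermatogonia, 14 were lower and 1 was higher (median -3.04). Sohlh1, a helix-loop-helix factor of spermatogonial differentiation, had 0.818 and 0.894 FPKM in pacSC, against 41.6 and 39.2 FPKM in priSG-A (log2 change -4.48, SE 0.27, adjusted p = 1.69e-05). Lin28a, which keeps let-7 microRNAs from maturing, had 0.673 and 0.737 FPKM in pacSC, against 32.6 and 29.5 FPKM in priSG-A. The stem cell factor Sall4 had 0.323 and 0.347 FPKM in pacSC, against 12.2 and 10.8 FPKM in priSG-A. The laminin receptor subunit Itga6, used to enrich spermatogonial stem cells, had 1.96 and 1.38 FPKM in pacSC, against 54.6 and 56.2 FPKM in priSG-A. In each of these genes both pacSC libraries were below 2 FPKM and far from both priSG-A libraries.

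Genes that act as spermatogonia differentiate and enter meiosis were lower as well. Stra8, the retinoic acid target that starts meiosis, had 7.51 and 4.75 FPKM in pacSC, against 166 and 145 FPKM in priSG-A (log2 change -4.48, SE 0.38, adjusted p = 3.35e-05). Dmrt1, which holds spermatogonia in mitosis, had 3.65 and 3.55 FPKM in pacSC, against 124 and 119 FPKM in priSG-A (log2 change -4.73, SE 0.27, adjusted p = 1.62e-05). The receptor tyrosine kinase Kit had 0.711 and 2.86 FPKM in pacSC, against 14.5 and 13.5 FPKM in priSG-A (log2 change -2.55, SE 0.45, adjusted p = 0.0011). The 2 genes of these lists that went the other way were Id4 and Dmrtb1. Id4, an inhibitor of helix-loop-helix factors known from the stem cell pool, had 30.4 and 26.8 FPKM in pacSC, against 6.05 and 5.25 FPKM in priSG-A (log2 change 2.15, SE 0.23, adjusted p = 8.45e-05). Dmrtb1, a DMRT factor of the mitosis to meiosis switch, had 123 and 117 FPKM in pacSC, against 20 and 16.4 FPKM in priSG-A (log2 change 2.66, SE 0.35, adjusted p = 0.00024). For both, the pacSC libraries were several times higher and lay close to each other.

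Genes of GDNF, FGF and KIT signalling, the growth factor inputs of spermatogonia, were lower in 23 of 24 tested (median -2.19), and 20 of the 24 were lower without priSG-A replicate 1 and pacSC replicate 2. The phosphatase Dusp6, an ERK feedback target, had 1.11 and 0.818 FPKM in pacSC, against 19.4 and 22.2 FPKM in priSG-A. The ERK pathway inhibitor Spred1 had 1.46 and 1.3 FPKM in pacSC, against 16 and 15.9 FPKM in priSG-A. The immediate early gene Fos had 4.16 and 4.44 FPKM in pacSC, against 59.9 and 49 FPKM in priSG-A. In these 3 genes the groups were far apart and the replicates close, and signalling itself was not measured. The insulin-like growth factor receptor Igf1r had 0.577 and 0.98 FPKM in pacSC, against 13.9 and 12.8 FPKM in priSG-A. The steepest fall in the list belonged to Kitl, the ligand of KIT, which Sertoli cells make. It had 1.09 and 1.09 FPKM in pacSC, against 34.5 and 31.4 FPKM in priSG-A (log2 change -4.02, SE 0.30, adjusted p = 2.49e-05). The Sertoli cell sums given above moved the same way as Kitl and most of the list, and their part in these falls was not tested. Fgfr2, with 0.221 and 0.905 FPKM in pacSC, against 1.52 and 1.48 FPKM in priSG-A, did not pass the test (adjusted p = 0.0524).

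**Figure D3:**
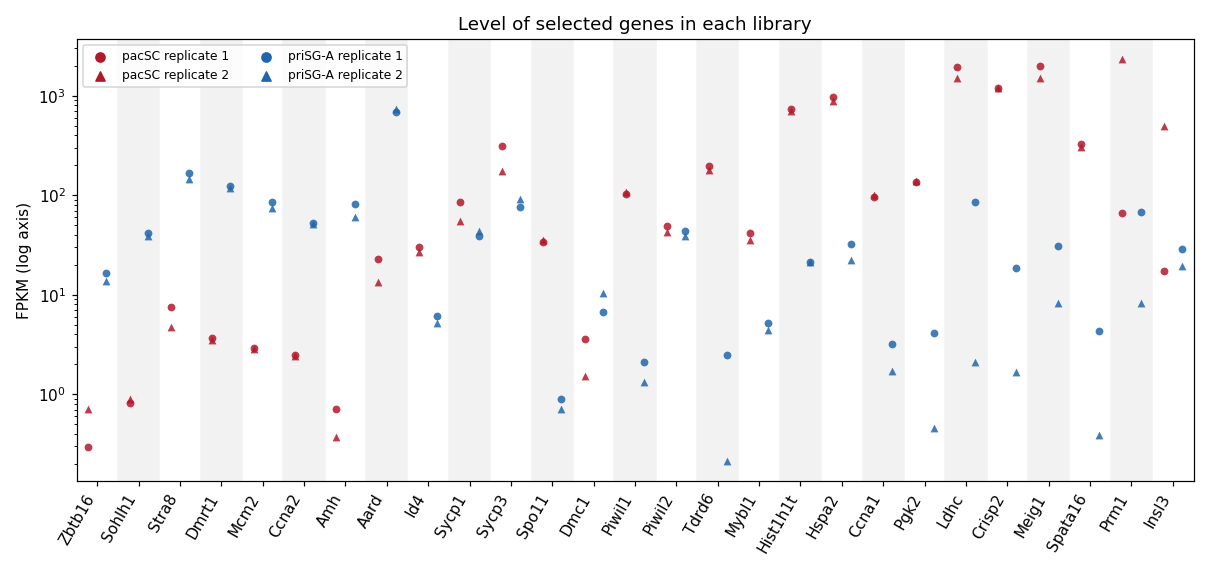
Level of 27 genes in each library as FPKM on a log axis, pacSC in red left of priSG-A in blue, circles for replicate 1 and triangles for replicate 2. Spermatogonial, replication and Sertoli cell genes on the left lie higher in priSG-A, most meiotic and spermatid genes on the right lie higher in pacSC, and Prm1, Insl3 and Ldhc show wide gaps between replicates.

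Replication genes fell in part. Of 34 genes of replication licensing and S phase, 24 were lower, 1 was higher and 9 were not called (median -1.47), and 17 were lower without priSG-A replicate 1 and pacSC replicate 2. The helicase subunits Mcm2 and Mcm4 and the loading factor Cdt1, which license origins, were among the steepest. Mcm2 had 2.93 and 2.85 FPKM in pacSC, against 84.6 and 75.1 FPKM in priSG-A (log2 change -4.38, SE 0.28, adjusted p = 1.87e-05). Mcm4 had 1.63 and 1.19 FPKM in pacSC, against 35.6 and 28.8 FPKM in priSG-A. Cdt1 had 0.727 and 0.47 FPKM in pacSC, against 20.3 and 18.9 FPKM in priSG-A. Other enzymes of S phase followed. Thymidine kinase Tk1 had 0.543 and 0.23 FPKM in pacSC, against 18.3 and 18.2 FPKM in priSG-A. The flap endonuclease Fen1, which trims lagging strand fragments, had 2.41 and 4.11 FPKM in pacSC, against 44.6 and 41.9 FPKM in priSG-A. Members of the same machinery did not pass the test, and their libraries lay side by side. The clamp Pcna had 100.4 and 80.9 FPKM in pacSC, against 94.3 and 84.7 FPKM in priSG-A. Mcm7 of the helicase ring had 74.9 and 64 FPKM in pacSC, against 87.4 and 77.8 FPKM in priSG-A. Gins4 had 62.5 and 49.3 FPKM in pacSC, against 49.8 and 48.4 FPKM in priSG-A. The GINS subunit Gins1, with 33.8 and 28.3 FPKM in pacSC, against 20 and 18.5 FPKM in priSG-A, was called higher (adjusted p = 0.0198), a call that was lost when either priSG-A library or pacSC replicate 1 was left out. Quantile normalization and median centring each gave 3 genes higher in this list.

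The D-type cyclins Ccnd2 and Ccnd1 were below 1 FPKM in pacSC. Ccnd2, a D-type cyclin of spermatogonia, had 0.36 and 0.42 FPKM in pacSC, against 27.6 and 20.5 FPKM in priSG-A (log2 change -4.16, SE 0.31, adjusted p = 2.49e-05). Ccnd1 had 0.565 and 0.586 FPKM in pacSC, against 17.1 and 16.2 FPKM in priSG-A. Their relative Ccnd3, with 2.5 and 7.17 FPKM in pacSC, against 8.2 and 7.77 FPKM in priSG-A, did not pass the test (adjusted p = 0.14). Mycn, a transcription factor of spermatogonial proliferation, had 0.71 and 0.391 FPKM in pacSC, against 27.5 and 25.2 FPKM in priSG-A. Cdk4, the kinase partner of D-type cyclins, had 13.8 and 11.2 FPKM in pacSC, against 81.8 and 75.9 FPKM in priSG-A. The inhibitors of cyclin-dependent kinases went both ways. The CIP/KIP member Cdkn1b had 0.61 and 1.18 FPKM in pacSC, against 13.5 and 13.7 FPKM in priSG-A (log2 change -2.96, SE 0.24, adjusted p = 2.76e-05). The INK4 member Cdkn2c had 75.8 and 55.9 FPKM in pacSC, against 9.08 and 7.22 FPKM in priSG-A (log2 change 2.86, SE 0.29, adjusted p = 6.43e-05). Its relative Cdkn2d had 45 and 33.4 FPKM in pacSC, against 8.28 and 7.94 FPKM in priSG-A. In all, 8 of 14 tested genes of this list were lower and 2 were higher (median -1.38), or 4 higher after quantile normalization and after median centring.

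Genes of the division itself went both ways. Of 32 mitosis and spindle genes, 14 were lower, 6 were higher and 12 were not called (median -0.42, which turned to 0.13 after median centring). Without priSG-A replicate 1 and pacSC replicate 2, 9 were lower and 2 higher, and leaving out priSG-A replicate 1, priSG-A replicate 2 or pacSC replicate 1 alone left 3 higher. The centromeric histone Cenpa had 0.514 and 0.782 FPKM in pacSC, against 25.5 and 21.3 FPKM in priSG-A (log2 change -3.89, SE 0.29, adjusted p = 2.51e-05). The mitotic cyclin Ccna2 had 2.48 and 2.4 FPKM in pacSC, against 52.1 and 51.7 FPKM in priSG-A (log2 change -3.94, SE 0.28, adjusted p = 2.25e-05). The kinase Aurka, by contrast, had 124 and 93 FPKM in pacSC, against 28.6 and 24 FPKM in priSG-A (log2 change 2.00, SE 0.36, adjusted p = 0.00123). Ccnb2, a B-type cyclin, had 112 and 90.2 FPKM in pacSC, against 34.2 and 39 FPKM in priSG-A, and its call was lost without priSG-A replicate 1 and pacSC replicate 2. The anaphase activator Cdc20, with 124 and 101 FPKM in pacSC, against 86.8 and 84.1 FPKM in priSG-A, was not called.

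Regulators of the meiotic divisions included some of the clearest rises. Ccna1, the A-type cyclin of male meiosis, had 95.2 and 100.1 FPKM in pacSC, against 3.19 and 1.71 FPKM in priSG-A (log2 change 4.87, SE 0.43, adjusted p = 3.67e-05). It was thus far above Ccna2 in pacSC and far below it in priSG-A. Spdya, a CDK activator needed at meiotic telomeres, had 132 and 104 FPKM in pacSC, against 3.18 and 2.9 FPKM in priSG-A (log2 change 4.87, SE 0.28, adjusted p = 1.62e-05). Fbxo43, an inhibitor of the anaphase-promoting complex, had 22.6 and 16.1 FPKM in pacSC, against 0.408 and 0.305 FPKM in priSG-A. Aurkc, the meiotic Aurora kinase, had 43.3 and 33 FPKM in pacSC, against 3.05 and 2.11 FPKM in priSG-A. In all 4 genes the stages were well apart. The falls of the list were led by 2 genes of CDK activation. The phosphatase Cdc25b had 0.352 and 0.162 FPKM in pacSC, against 5.91 and 6.21 FPKM in priSG-A (log2 change -2.49). Mastl, the Greatwall kinase, had 1.93 and 2.27 FPKM in pacSC, against 10.7 and 11.5 FPKM in priSG-A (log2 change -1.96). Over the list, 9 of 20 genes were higher and 7 were lower (median 0.36), with 4 lower after median centring.

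The synaptonemal complex and chromosome axis genes were measurable in priSG-A and mostly higher in pacSC. Of 19 tested, 11 were higher, 3 were lower and 5 were not called (median 1.03), and 9 were higher without priSG-A replicate 1 and pacSC replicate 2. The lateral element protein Sycp3 had 315 and 174 FPKM in pacSC, against 76.2 and 91.2 FPKM in priSG-A (log2 change 1.48, SE 0.33, adjusted p = 0.00377). Its partner Sycp2 had 208 and 164 FPKM in pacSC, against 17.4 and 21.4 FPKM in priSG-A (log2 change 3.19, SE 0.23, adjusted p = 2.34e-05). The central element protein Syce1 had 462 and 342 FPKM in pacSC, against 43.3 and 45.4 FPKM in priSG-A (log2 change 3.14, SE 0.38, adjusted p = 0.000138). The transverse filament Sycp1, with 85.2 and 54.6 FPKM in pacSC, against 38.9 and 43.4 FPKM in priSG-A, missed the threshold (adjusted p = 0.0851), as did Tex12 (adjusted p = 0.0655). Both pacSC libraries were above both priSG-A libraries in Sycp1, yet the gap between the pacSC replicates was nearly as wide as the gap between the stages.

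The 2 steepest rises of this group were Meikin and Kash5, and a further gene for a telomere protein is given beside them. Meikin (4930404A10Rik in the files), a kinetochore protein of meiosis I, had 31.2 and 22.8 FPKM in pacSC, against 0.322 and 0.33 FPKM in priSG-A (log2 change 4.38, SE 0.27, adjusted p = 1.82e-05). Kash5 (Ccdc155), which links telomeres to the cytoskeleton through the nuclear envelope, had 56 and 53.6 FPKM in pacSC, against 2.87 and 2.75 FPKM in priSG-A (log2 change 3.87, SE 0.29, adjusted p = 2.49e-05). Terb1 (Ccdc79), a telomere attachment protein, had 29.4 and 21 FPKM in pacSC, against 1.95 and 2.77 FPKM in priSG-A. All 3 were under 3 FPKM in priSG-A. Sun1, the inner membrane partner of KASH proteins, had 26.5 and 24.3 FPKM in pacSC, against 26.4 and 27.1 FPKM in priSG-A and did not pass the test. The list had 3 falls. Fkbp6, an immunophilin needed for male meiosis, had 28.4 and 19.6 FPKM in pacSC, against 132 and 125 FPKM in priSG-A (log2 change -2.40, SE 0.33, adjusted p = 0.000279). The meiotic cohesin subunit Rad21l had 1.17 and 0.415 FPKM in pacSC, against 5.64 and 8.24 FPKM in priSG-A. Syce2, a central element protein, had 54.8 and 73.3 FPKM in pacSC, against 106 and 112 FPKM in priSG-A (adjusted p = 0.0241), and its call was lost after median centring and without priSG-A replicate 1, priSG-A replicate 2 or pacSC replicate 1.

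Recombination genes went both ways. Over 21 break and strand exchange genes, 7 were higher and 10 were lower (median -0.26; 0.28 after quantile normalization and after median centring), with 6 higher and 6 lower without priSG-A replicate 1 and pacSC replicate 2. Rec114 (2410076I21Rik), needed for break formation, had 1.41 and 0.511 FPKM in pacSC, against 15.8 and 15.2 FPKM in priSG-A (log2 change -3.12, SE 0.31, adjusted p = 5.83e-05). Mei1, also needed for breaks, had 0.703 and 0.781 FPKM in pacSC, against 4.34 and 5.37 FPKM in priSG-A. Dmc1, the meiotic recombinase, had 3.61 and 1.52 FPKM in pacSC, against 6.7 and 10.5 FPKM in priSG-A (log2 change -1.46, SE 0.51, adjusted p = 0.0277), a call that was lost under 6 alternatives. Zcwpw1, a reader of the histone marks at hotspots, had 13.6 and 10.7 FPKM in pacSC, against 46.1 and 52.9 FPKM in priSG-A. Brca1, which acts in double-strand break repair, had 3.37 and 3.47 FPKM in pacSC, against 22.7 and 22.7 FPKM in priSG-A.

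Spo11, the topoisomerase-like protein that cuts the DNA, was higher in pacSC. It had 34.2 and 35.6 FPKM in pacSC, against 0.903 and 0.715 FPKM in priSG-A (log2 change 4.31, SE 0.24, adjusted p = 1.6e-05), with replicates close together in both stages. Psmc3ip (HOP2), an accessory factor of DMC1, had 281 and 202 FPKM in pacSC, against 27.7 and 23.4 FPKM in priSG-A (log2 change 3.17, SE 0.36, adjusted p = 0.000107). Meiob (4930528F23Rik), a single-strand DNA binding protein, had 21.6 and 13.6 FPKM in pacSC, against 1.13 and 2.41 FPKM in priSG-A. Its partner Spata22 had 25.7 and 18.7 FPKM in pacSC, against 2.47 and 4.06 FPKM in priSG-A. Both pairs of pacSC libraries lay above the priSG-A libraries. Hsf2bp, which binds BRCA2, had 37.7 and 28.1 FPKM in pacSC, against 4.19 and 4.9 FPKM in priSG-A. Brca2 itself, the recombinase loader, had 10.6 and 11.2 FPKM in pacSC, against 10.9 and 11.8 FPKM in priSG-A and did not pass the test.

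Crossover genes also went both ways. The list of 15 had 5 higher, 7 lower and 3 not called (median 0.13, which was -0.15 without pacSC replicate 1 and -0.49 among genes of at least 5 FPKM), and without priSG-A replicate 1 and pacSC replicate 2 it had 3 higher. The crossover regulator Cntd1 had 92.9 and 68.4 FPKM in pacSC, against 6.48 and 6.78 FPKM in priSG-A (log2 change 3.40, SE 0.26, adjusted p = 2.49e-05). The MutS homologue Msh4 had 8.2 and 5.13 FPKM in pacSC, against 1.04 and 0.956 FPKM in priSG-A (log2 change 1.91, SE 0.26, adjusted p = 0.000288). Mlh3, a MutL homologue that acts in crossing over, had 17.4 and 15.3 FPKM in pacSC, against 5.34 and 5.05 FPKM in priSG-A (log2 change 1.48, SE 0.21, adjusted p = 0.000359). Msh5, the partner of MSH4, had 3.89 and 3.73 FPKM in pacSC, against 1.95 and 2.68 FPKM in priSG-A and was called narrowly (adjusted p = 0.0485), a call that was lost with any 1 of the 4 libraries left out. The mismatch repair genes of all dividing cells named here were lower. Msh6 had 18.6 and 14.5 FPKM in pacSC, against 50 and 47.8 FPKM in priSG-A (log2 change -1.52, SE 0.23, adjusted p = 0.000434). Pms2 had 1.93 and 1.6 FPKM in pacSC, against 10.8 and 11.7 FPKM in priSG-A. Tex11, an X-linked crossover factor, had 3.35 and 2.14 FPKM in pacSC, against 48 and 55.8 FPKM in priSG-A (log2 change -3.84, SE 0.37, adjusted p = 5.15e-05).

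The piRNA pathway, which silences transposons in germ cells, rose broadly. Of 25 tested genes 18 were higher, 2 were lower and 5 were not called (median 1.30), and 17 were higher without priSG-A replicate 1 and pacSC replicate 2. The lower count was 1 in that case. Of the 3 PIWI genes only Piwil1, given above, was higher. Piwil2, with 49.3 and 42.3 FPKM in pacSC, against 43.7 and 39 FPKM in priSG-A, did not pass the test. Piwil4, the fetal and spermatogonial PIWI protein, had 0.0521 and 0.154 FPKM in pacSC, against 3.15 and 3.17 FPKM in priSG-A (log2 change -1.92, SE 0.11, adjusted p = 1.65e-05). The scaffold Tdrd6 of the chromatoid body had 198 and 180.1 FPKM in pacSC, against 2.49 and 0.214 FPKM in priSG-A (log2 change 6.53, SE 0.53, adjusted p = 2.87e-05). Mael, a piRNA biogenesis factor, had 1002 and 826 FPKM in pacSC, against 156 and 147 FPKM in priSG-A. The RNA helicase Ddx25 had 240.0 and 183 FPKM in pacSC, against 22.6 and 20.8 FPKM in priSG-A. In these 3 genes pacSC stood above priSG-A in both replicates. Mybl1 itself had 41.3 and 35.1 FPKM in pacSC, against 5.25 and 4.44 FPKM in priSG-A (log2 change 2.75, SE 0.22, adjusted p = 2.68e-05). The trimming exonuclease Pnldc1 was lower, with 6.04 and 5.33 FPKM in pacSC, against 15.3 and 14 FPKM in priSG-A.

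Most transcription regulators of meiosis and spermiogenesis were also higher, 18 of 21 tested, with 1 lower and 2 not called (median 3.06), and the count was 18 without priSG-A replicate 1 and pacSC replicate 2. Kctd19, a partner of the meiotic repressor ZFP541, had 199.8 and 209 FPKM in pacSC, against 2.38 and 0.161 FPKM in priSG-A (log2 change 6.70, SE 0.53, adjusted p = 2.68e-05). The testis TFIIA subunit Gtf2a1l had 191 and 177 FPKM in pacSC, against 3.15 and 0.251 FPKM in priSG-A (log2 change 6.34, SE 0.61, adjusted p = 5.2e-05). In Kctd19 and Gtf2a1l priSG-A replicate 1 was well above replicate 2, yet both lay far below pacSC. The POU factor Pou5f2 had 57.7 and 49.9 FPKM in pacSC, against 0.55 and 0.33 FPKM in priSG-A. The heat shock factor Hsf5 had 52.8 and 57.7 FPKM in pacSC, against 0.997 and 0.496 FPKM in priSG-A. The bromodomain protein Brdt, which reads acetylated histones, had 159 and 164 FPKM in pacSC, against 10 and 7.73 FPKM in priSG-A. The 1 fall was Taf7l, an X-linked TFIID subunit, with 15.8 and 11.8 FPKM in pacSC, against 194 and 206 FPKM in priSG-A (log2 change -3.78, SE 0.31, adjusted p = 2.95e-05).

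Promoters were searched for 8 motifs in all 29 lists, on both strands and with overlapping matches allowed. Each promoter was counted as with or without a match, and overlap between different motifs was not counted. The 3 pairs of a list and a motif given here were picked after the shares were seen, each for a factor known for the group. For each of these motifs the 2 genes with the largest change among those with 1 listed start site and a match are shown, a choice made after their values were seen. A promoter was taken as 250 bases before to 50 bases after a RefSeq start site (build GRCm38.p6), and 10625 of the 13316 tested genes had at least 1. Matches to the MYB core AACNGNC were in 17 of 28 piRNA pathway promoters (60.7%), against 33.9% for all tested genes and 32.8% for all RefSeq promoters. The share was not particular to this list: meiotic division and testis chaperones each had 66.7%, macrophage genes 66.7% (4 of 6), and crossover genes and stromal genes 63.6%. They were in 41.5% of promoters of genes called higher and 30.1% of genes called lower. Piwil1 (chr5:128735996-128736295, plus strand) holds 3 matches, which begin 189, 75 and 66 bases before the start site, and Mael (chr1:166238695-166238994, minus strand) holds 1, which begins 97 bases before it. The 300 bases of each are given 5′ to 3′ with the matches in capitals.
Piwil1: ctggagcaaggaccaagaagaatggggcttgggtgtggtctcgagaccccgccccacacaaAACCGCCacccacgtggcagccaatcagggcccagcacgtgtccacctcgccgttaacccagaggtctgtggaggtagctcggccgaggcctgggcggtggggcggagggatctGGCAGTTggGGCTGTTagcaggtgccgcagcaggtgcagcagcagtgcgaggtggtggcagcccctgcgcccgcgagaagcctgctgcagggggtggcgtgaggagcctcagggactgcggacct
Mael: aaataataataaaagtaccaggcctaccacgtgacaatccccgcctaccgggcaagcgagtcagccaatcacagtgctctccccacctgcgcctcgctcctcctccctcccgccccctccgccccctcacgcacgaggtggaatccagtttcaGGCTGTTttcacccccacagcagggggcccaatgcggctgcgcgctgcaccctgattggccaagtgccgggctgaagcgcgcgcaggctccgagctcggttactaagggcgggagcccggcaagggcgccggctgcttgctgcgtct

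The motif GTTGCNANG, a part of the X-box, bound by RFX factors that are known to drive cilium genes, was in 9 of 42 promoters of axoneme and flagellum genes (21.4%), against 5.27% for all tested genes and 4.67% for all RefSeq promoters. The next highest list was testis chaperones, with 13.3% (2 of 15). It was in 9.81% of promoters of genes called higher and 3.4% of genes called lower. Of the RFX genes, 2 are on the transcription regulator list. Rfx2, chosen after its values were seen, had 18.2 and 26 FPKM in pacSC, against 0.871 and 0.674 FPKM in priSG-A (log2 change 3.68, SE 0.28, adjusted p = 2.51e-05). Rfx3 had 0.933 and 1.65 FPKM in pacSC, against 1.53 and 1.4 FPKM in priSG-A and did not pass the test, but turned to 0.50 and was called higher after quantile normalization. Tekt3 (chr11:63061409-63061708, plus strand), a tektin of the axoneme, and Dnaic2 (chr11:114727169-114727468, plus strand), a dynein intermediate chain, each hold 1 match, which begins 33 bases before the start site. Tekt3 had 87.6 and 77.6 FPKM in pacSC, against 1.28 and 0.0514 FPKM in priSG-A. Dnaic2 had 29 and 27.5 FPKM in pacSC, against 0.62 and 0.193 FPKM in priSG-A.
Tekt3: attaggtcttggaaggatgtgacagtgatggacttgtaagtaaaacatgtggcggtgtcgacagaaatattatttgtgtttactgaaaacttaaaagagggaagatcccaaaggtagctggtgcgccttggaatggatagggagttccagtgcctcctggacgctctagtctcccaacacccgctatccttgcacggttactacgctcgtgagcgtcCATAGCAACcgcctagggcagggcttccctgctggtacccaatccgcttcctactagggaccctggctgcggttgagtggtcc
Dnaic2: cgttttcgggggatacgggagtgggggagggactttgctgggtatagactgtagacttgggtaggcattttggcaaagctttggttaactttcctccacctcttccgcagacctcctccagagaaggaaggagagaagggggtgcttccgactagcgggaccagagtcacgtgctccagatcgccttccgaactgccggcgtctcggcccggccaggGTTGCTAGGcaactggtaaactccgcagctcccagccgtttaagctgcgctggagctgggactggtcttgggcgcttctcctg

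The E2F core TTTNGCGC, known from genes of S phase, was in 10 of 33 promoters of replication genes (30.3%), against 2.48% for all tested genes and 1.38% for all RefSeq promoters. The next highest list was G1 cyclins and inhibitors, with 18.2% (2 of 11). Of the 10 replication genes that hold it, 9 were lower, beside 24 of all 34 tested replication genes. A link between match and fall was not tested. Over all genes it was in 2.17% of promoters of genes called higher and 2.54% of genes called lower. Cdt1 (chr8:122567765-122568064, plus strand) and Mcm3 (chr1:20820263-20820562, minus strand) each hold 1 match, which begins at base 33 after the start site in Cdt1 and at base 39 in Mcm3. Mcm3 had 8.3 and 6.29 FPKM in pacSC, against 71.6 and 63.3 FPKM in priSG-A.
Cdt1: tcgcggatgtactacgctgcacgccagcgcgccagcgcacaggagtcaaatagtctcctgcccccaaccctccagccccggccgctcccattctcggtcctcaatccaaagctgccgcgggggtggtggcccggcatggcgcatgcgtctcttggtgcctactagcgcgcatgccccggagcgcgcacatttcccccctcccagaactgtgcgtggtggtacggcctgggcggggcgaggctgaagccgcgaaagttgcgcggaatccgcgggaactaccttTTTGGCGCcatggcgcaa
Mcm3: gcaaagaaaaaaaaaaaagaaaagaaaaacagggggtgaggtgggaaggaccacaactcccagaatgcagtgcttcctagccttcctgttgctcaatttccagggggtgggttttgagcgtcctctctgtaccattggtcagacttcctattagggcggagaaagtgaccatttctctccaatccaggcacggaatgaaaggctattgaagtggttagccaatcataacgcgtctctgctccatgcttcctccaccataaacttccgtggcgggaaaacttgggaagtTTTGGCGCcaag
Promoters of genes called higher had a median GC content of 57.7%, and those of genes called lower 61.3%; its part in the shares of matches was not tested. A match describes the letters only.

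Every tested gene for the sperm tail and acrosome was higher in pacSC. All 37 tested axoneme and flagellum genes and all 27 acrosome and sperm-egg fusion genes were higher (medians 4.50 and 4.10), with 35 and 25 higher without priSG-A replicate 1 and pacSC replicate 2. Meig1, which assembles the manchette, had 1966 and 1519 FPKM in pacSC, against 31 and 8.24 FPKM in priSG-A (log2 change 6.65, SE 0.63, adjusted p = 4.77e-05). Tcte3, a dynein light chain, had 1236 and 1181 FPKM in pacSC, against 13.5 and 5.34 FPKM in priSG-A (log2 change 6.98, SE 0.49, adjusted p = 2.17e-05). The radial spoke protein Rsph1 had 1210 and 1043 FPKM in pacSC, against 18.2 and 6.75 FPKM in priSG-A. Rsph6a, also a radial spoke protein, had 156 and 179 FPKM in pacSC, against 2.83 and 0.256 FPKM in priSG-A. The central pair protein Spag6 had 249.8 and 173 FPKM in pacSC, against 2.88 and 0.279 FPKM in priSG-A. In each of these genes priSG-A replicate 1 was above replicate 2, and both were far below pacSC.

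Among acrosome genes Crisp2, a secretory protein of the acrosome and flagellum, had 1200 and 1188 FPKM in pacSC, against 18.4 and 1.69 FPKM in priSG-A (log2 change 7.37, SE 0.83, adjusted p = 0.000104). Adam2, a sperm surface protein, had 281 and 206 FPKM in pacSC, against 2.94 and 0.168 FPKM in priSG-A. Its relative Adam3 had 274 and 275 FPKM in pacSC, against 5.01 and 0.355 FPKM in priSG-A. Spata16, needed for acrosome formation, had 329 and 303 FPKM in pacSC, against 4.33 and 0.393 FPKM in priSG-A (log2 change 6.86, SE 0.65, adjusted p = 4.66e-05). Zpbp2, a zona pellucida binding protein, had 197 and 155 FPKM in pacSC, against 3.39 and 0.555 FPKM in priSG-A. The pacSC replicates lay close together in these 5 genes, unlike the list as a whole, whose median difference of pacSC replicate 1 minus replicate 2 was -1.09 on the log2 scale. In all 5, priSG-A replicate 1 was several times above replicate 2. Without pacSC replicate 2 the acrosome median was 3.32.

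For nuclear condensation genes, most of the RNA was in 1 pacSC library. Prm1, the first protamine, had 66 and 2340 FPKM in pacSC, against 67.5 and 8.25 FPKM in priSG-A (log2 change 3.98, SE 1.52, adjusted p = 0.0401). Its pacSC replicate 1 was level with priSG-A replicate 1. The transition protein Tnp1, which replaces histones, had 43.1 and 1022 FPKM in pacSC, against 25.7 and 4.43 FPKM in priSG-A. Tnp2 had 38.7 and 810.4 FPKM in pacSC, against 24 and 2.17 FPKM in priSG-A. In both, pacSC replicate 2 was far above the other 3 libraries. All 8 genes of this list were called higher (median 4.04), but 3 were higher without pacSC replicate 2, where the median was 1.70, 3 without priSG-A replicate 2, and 2 in the fit of the 4 libraries alone. The calls of Prm1, Tnp1 and Tnp2 were lost in each of these fits. Round spermatids had 16020 and 19270 FPKM of Prm1 in the same files.

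Testis chaperones were higher in 12 of 16 tested and lower in 1 (median 3.02). Hspb9, a small heat shock protein of the testis, had 710.4 and 689 FPKM in pacSC, against 12.5 and 1.16 FPKM in priSG-A (log2 change 7.02, SE 0.80, adjusted p = 0.000108). Clgn, a calnexin relative needed for ADAM protein folding, had 322 and 255 FPKM in pacSC, against 6.94 and 3.3 FPKM in priSG-A (log2 change 5.62, SE 0.44, adjusted p = 2.64e-05). The chaperonin subunit Cct6b had 145 and 108 FPKM in pacSC, against 2.32 and 0.541 FPKM in priSG-A. The general HSP70 Hspa8 was the fall, with 136 and 99 FPKM in pacSC, against 825 and 769 FPKM in priSG-A (log2 change -2.77, SE 0.32, adjusted p = 0.000112). Hspa2 made up 87.8 and 90% of the summed FPKM of the pair in pacSC, against 3.76 and 2.83% in priSG-A.

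Genes for RNA binding and translation divided into 16 higher and 9 lower of 27 (median 1.38). The Y-box protein Ybx2, which stores mRNAs for later translation, had 252 and 326 FPKM in pacSC, against 5.05 and 2.1 FPKM in priSG-A (log2 change 6.05, SE 0.39, adjusted p = 1.87e-05). The poly(A)-binding protein Pabpc6 had 294 and 249.9 FPKM in pacSC, against 3.52 and 0.54 FPKM in priSG-A (log2 change 6.69, SE 0.54, adjusted p = 2.87e-05). The cytoplasmic poly(A) polymerase Papolb had 114 and 113 FPKM in pacSC, against 2.97 and 1.13 FPKM in priSG-A. In these 3 genes the priSG-A libraries were both far below pacSC. Dazl, a translation regulator of early germ cells, was lower, with 55.6 and 31.7 FPKM in pacSC, against 201 and 217 FPKM in priSG-A (log2 change -2.29, SE 0.41, adjusted p = 0.00119). Nanos1, a translational repressor, had 0.368 and 0.47 FPKM in pacSC, against 6.43 and 7.42 FPKM in priSG-A. Pum2, which binds NANOS proteins, had 10.4 and 10.8 FPKM in pacSC, against 31.1 and 30.9 FPKM in priSG-A. Dazl kept the highest pacSC level of these 3 genes.

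Histone genes went both ways. Of 15 tested testis and replacement variants 7 were higher and 4 were lower (median 0.37; 7 lower in the fit without plpSC). Among the rises, Hils1, H1fnt and H2afb1 had most of their pacSC RNA in replicate 2. Hils1 had 30.2 and 103 FPKM in pacSC, H1fnt 11 and 85.8 FPKM and H2afb1 6.42 and 44.5 FPKM. Both pacSC libraries lay above both priSG-A libraries in each. Their rST means were 479, 481 and 442 FPKM. Hist1h1t, the testis linker histone H1t, had 733 and 704 FPKM in pacSC, against 21.4 and 21.4 FPKM in priSG-A (log2 change 5.01, SE 0.34, adjusted p = 1.99e-05). The other linker histones of the Hist1 cluster named here were lower. Hist1h1a had 129 and 83.5 FPKM in pacSC, against 1437 and 1829 FPKM in priSG-A (log2 change -3.95, SE 0.46, adjusted p = 0.000124). Hist1h1b had 1.46 and 0.215 FPKM in pacSC, against 83.5 and 65.5 FPKM in priSG-A. Hist1h1c, a somatic form, had 13.6 and 8.96 FPKM in pacSC, against 121 and 156 FPKM in priSG-A. H1t made up 98.2 and 98.7% of the pair with Hist1h1c in pacSC, against 15 and 12.1% in priSG-A. Hist1h2ba, the testis H2B variant TH2B, had 6281 and 4690 FPKM in pacSC, against 1045 and 1818 FPKM in priSG-A (log2 change 1.98, SE 0.54, adjusted p = 0.00967), and its call was lost without priSG-A replicate 1. Its partner Hist1h2aa, with 485 and 341 FPKM in pacSC, against 604 and 848 FPKM in priSG-A, did not pass the test. On the Hist1 cluster of chromosome 13, 49 of 52 tested genes were lower and 2, Hist1h1t and Hist1h2ba, were higher (median -3.76). Core histone genes are near-identical in sequence, so reads may have been split between them.

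Genes of glycolysis divided nearly evenly. Of 29 tested, 15 were higher and 14 were lower (median 1.08, which turned to -1.76 among genes of at least 5 FPKM). The phosphoglycerate mutase Pgam2 had 462 and 412 FPKM in pacSC, against 8.15 and 0.891 FPKM in priSG-A (log2 change 6.72, SE 0.71, adjusted p = 7.5e-05). The glucose transporter Slc2a3 had 570.1 and 465 FPKM in pacSC, against 7.2 and 3.39 FPKM in priSG-A (log2 change 6.42, SE 0.40, adjusted p = 1.82e-05). The monocarboxylate transporter Slc16a7 had 37.3 and 59.8 FPKM in pacSC, against 1.2 and 0.25 FPKM in priSG-A. Both pacSC libraries were far above both priSG-A libraries in these 3 genes. On the other side, the dehydrogenase Gapdh had 14.7 and 23 FPKM in pacSC, against 268 and 214 FPKM in priSG-A (log2 change -3.63, SE 0.37, adjusted p = 6.83e-05). The lactate dehydrogenase subunit Ldhb had 12.5 and 14.3 FPKM in pacSC, against 222 and 222 FPKM in priSG-A (log2 change -3.96, SE 0.27, adjusted p = 2.07e-05). The hexokinase Hk2 had 1.06 and 1.05 FPKM in pacSC, against 25 and 21.6 FPKM in priSG-A. The lactate exporter Slc16a3 had 2.52 and 1.87 FPKM in pacSC, against 30.4 and 20.1 FPKM in priSG-A. Gapdh has many processed copies in the genome, so its level is uncertain.

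In 33 pairs of a testis gene and its general relative, the 2 forms were set side by side. Some pairs are an X-linked gene and its autosomal retrocopy. Both forms were tested in 32 pairs. The testis form was higher in 26 and lower in 2, the general form was lower in 25 and higher in 3, and both changes occurred together in 20 pairs. Without priSG-A replicate 1 and pacSC replicate 2 the last count was 16. The testis form made up over 50% of the summed FPKM in both pacSC libraries in 26 pairs, and in both priSG-A libraries in 7.

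**Figure D4:**
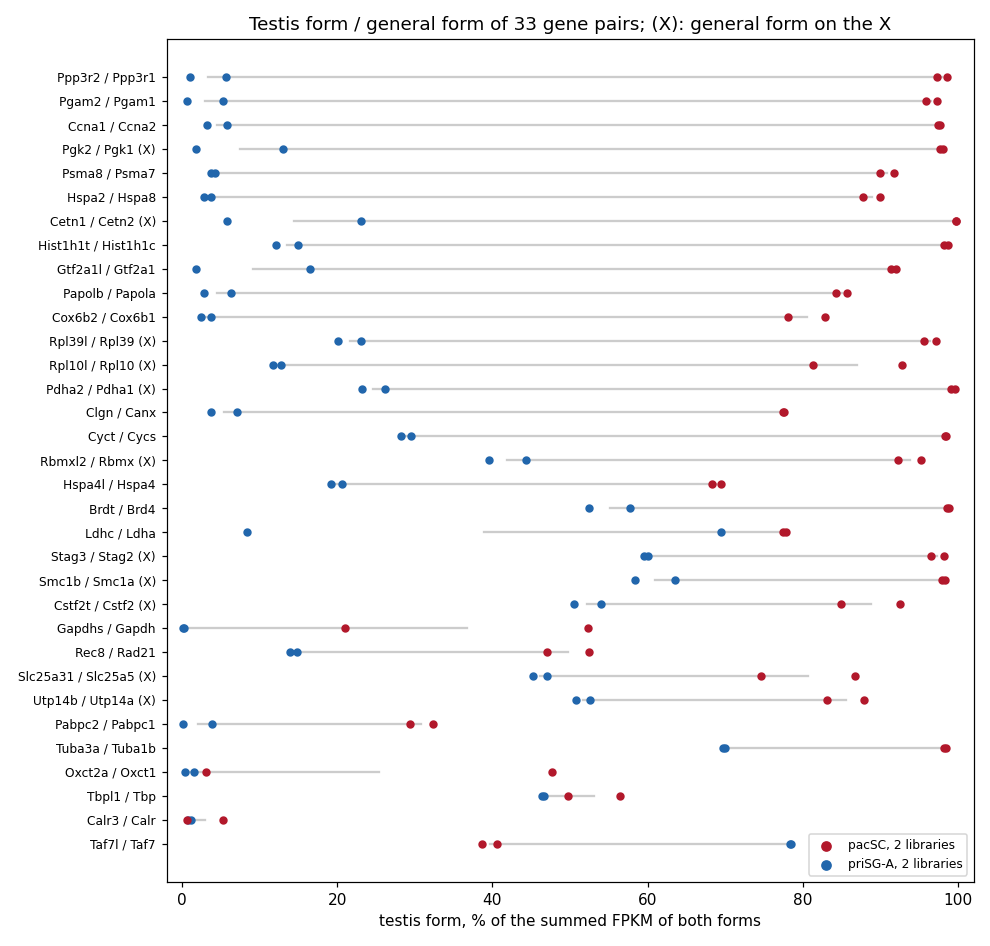
Share of the testis form in the summed FPKM of testis and general form for 33 pairs, with both pacSC libraries in red and both priSG-A libraries in blue; grey lines join the group means and (X) marks pairs whose general form is X-linked. In 26 pairs both pacSC libraries lie above 50%, and in Taf7l the pacSC libraries, 40.6 and 38.7%, lie below the priSG-A libraries, both 78.4%.

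Phosphoglycerate kinase is the classic case. X-linked Pgk1 had 2.6 and 3.32 FPKM in pacSC, against 27.8 and 24.4 FPKM in priSG-A (log2 change -2.78, SE 0.30, adjusted p = 8.64e-05). Its retrocopy Pgk2 had 135 and 139 FPKM in pacSC, against 4.15 and 0.454 FPKM in priSG-A (log2 change 5.65, SE 0.60, adjusted p = 8.02e-05). The retrocopy was the more abundant form in pacSC and the less abundant in priSG-A. The pyruvate dehydrogenase subunit Pdha1, on the X, had 0.664 and 1.2 FPKM in pacSC, against 14.4 and 14.5 FPKM in priSG-A. Its relative Pdha2 on chromosome 3 had 169 and 129 FPKM in pacSC, against 5.09 and 4.35 FPKM in priSG-A. The order of the forms again differed between the stages. The centrin gene Cetn1 had 582 and 473 FPKM in pacSC, against 8.2 and 1.9 FPKM in priSG-A. X-linked Cetn2 had 1.36 and 1.53 FPKM in pacSC, against 27.3 and 30.7 FPKM in priSG-A. Ribosomal proteins had the same exchange. X-linked Rpl39 had 5.25 and 6.23 FPKM in pacSC, against 144 and 155 FPKM in priSG-A. Its relative Rpl39l had 183 and 136 FPKM in pacSC, against 43.1 and 39.2 FPKM in priSG-A. X-linked Rpl10 had 16.1 and 30.8 FPKM in pacSC, against 242 and 266 FPKM in priSG-A, and Rpl10l had 208 and 134 FPKM in pacSC, against 35.3 and 35.4 FPKM in priSG-A. Among the cohesin pairs the testis forms Smc1b and Stag3 were the more abundant form in both stages, and the kleisin Rec8 was not. Rec8 had 5.72 and 12.4 FPKM in pacSC, against 11 and 11.7 FPKM in priSG-A, and did not pass the test. Smc1b had 97.7 and 87.1 FPKM in pacSC, against 44.5 and 45.1 FPKM in priSG-A, and X-linked Smc1a had 1.61 and 1.83 FPKM in pacSC, against 31.6 and 25.9 FPKM in priSG-A. The call of Smc1b was lost without priSG-A replicate 1 and pacSC replicate 2.

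Pairs with an autosomal general form showed it as well. The cytochrome c gene Cyct had 394 and 278 FPKM in pacSC, against 30.8 and 35.3 FPKM in priSG-A. The general gene Cycs had 6.36 and 4.74 FPKM in pacSC, against 78.1 and 84.5 FPKM in priSG-A. The proteasome subunit Psma8 had 189.8 and 169 FPKM in pacSC, against 7.64 and 6.67 FPKM in priSG-A. Its general counterpart Psma7 had 17.1 and 18.8 FPKM in pacSC, against 175 and 175 FPKM in priSG-A. In both pairs the more abundant form differed between the stages. The calcineurin subunit Ppp3r2 had 159 and 123 FPKM in pacSC, against 1.77 and 0.291 FPKM in priSG-A. The general form Ppp3r1 had 2.3 and 3.43 FPKM in pacSC, against 29.8 and 28 FPKM in priSG-A.

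In 3 pairs both forms rose. Ldhc had 1944 and 1522 FPKM in pacSC, against 85 and 2.13 FPKM in priSG-A (log2 change 6.71, SE 1.29, adjusted p = 0.00169). Lactate dehydrogenase A, Ldha, had 567 and 435 FPKM in pacSC, against 37.3 and 23.4 FPKM in priSG-A (log2 change 4.02, SE 0.43, adjusted p = 8.12e-05). The others were Pabpc2 with Pabpc1 and Tbpl1 with Tbp. The TBP-like factor Tbpl1 had 102 and 78.7 FPKM in pacSC, against 16.2 and 14.2 FPKM in priSG-A. The TATA-binding protein Tbp had 78.8 and 79.4 FPKM in pacSC, against 18.7 and 16.3 FPKM in priSG-A. Slc25a31, the ADP/ATP carrier of male germ cells, was called lower, with 36.2 and 24.6 FPKM in pacSC, against 49.2 and 51.1 FPKM in priSG-A (adjusted p = 0.0229). Its call was lost after median centring and without priSG-A replicate 1, priSG-A replicate 2 or pacSC replicate 2. Its X-linked counterpart Slc25a5 had 5.55 and 8.36 FPKM in pacSC, against 59.4 and 57.5 FPKM in priSG-A.

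X-linked genes were lower than those of any autosome by their median. Of 590 tested X-linked genes 469 were lower (79.5%) and 100 were higher (16.9%), against 51.9% and 27.3% of 12703 autosomal genes. The median change was -2.09 on the X and -0.66 on the autosomes, where single chromosomes ran from -0.94 (chromosome 13, -0.75 without its Hist1 genes) to -0.415 (chromosome 12). The difference of the 2 medians was -1.43, between -1.31 and -1.48 when any 1 library was left out, and -1.19 after quantile normalization. It was -2.39 with a pseudocount of 0.1, -0.94 without a filter on low values and -2.20 among genes of at least 5 FPKM. X-linked genes took 0.38 and 0.82% of the FPKM sum in pacSC, against 2.66 and 2.87% in priSG-A. Without the short entry Mir680-2 they summed to 1542 and 2464 FPKM in pacSC, against 10180 and 10430 FPKM in priSG-A.

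**Figure D5:**
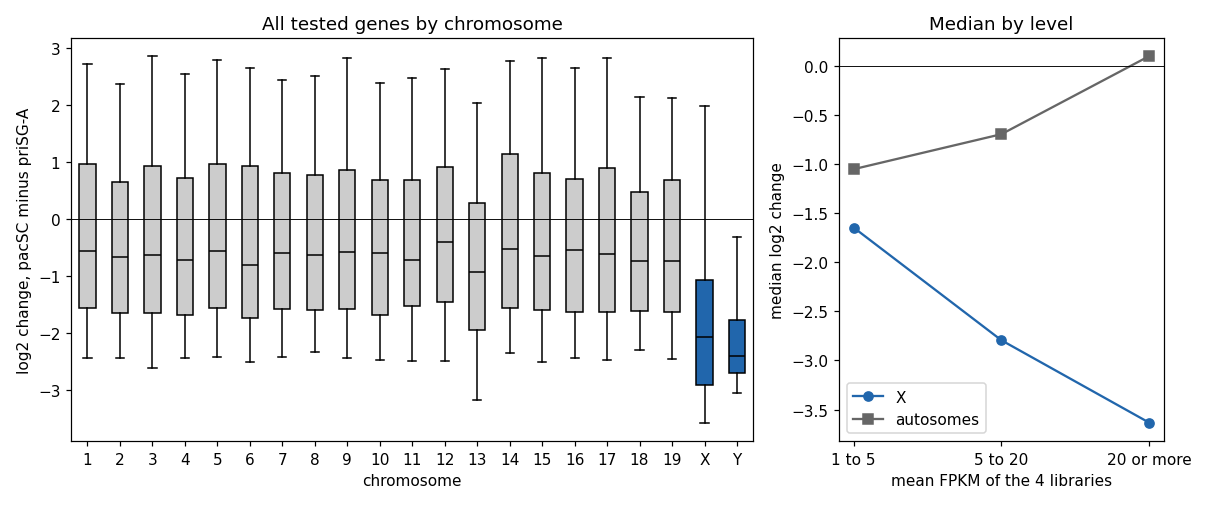
Left, change of all tested genes by chromosome (line, median; box, quartiles; whiskers, 10th to 90th percentile), with the sex chromosomes in blue; right, median change of X-linked and autosomal genes by mean FPKM over the 4 libraries. The X median, -2.09, and the Y median, -2.42, lie below every autosome, and the X and autosome medians part further with level, to -3.63 and 0.10 at 20 FPKM or more. The fall that a low gene can show on this scale is limited, so part of the X step with level is built in.

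The X-linked fall was larger in bins of higher mean level. On log2(FPKM + 1) the fall that a low gene can show is limited. The bins were also cut on the same 4 libraries that give the change, so part of this step is built in. Grouped by mean FPKM over the 4 libraries, the median change was -1.65 for 262 X-linked genes of 1 to 5 FPKM, -2.79 for 210 of 5 to 20 FPKM, and -3.63 for 69 of 20 FPKM or more. The autosomal medians in the same bins were -1.05, -0.70 and 0.10. Of all X-linked genes 51.5% were called and at least 4-fold lower, against 17.5% of autosomal genes. Hmgb3, an HMG-box chromatin protein, had 5.23 and 4.51 FPKM in pacSC, against 203 and 212 FPKM in priSG-A (log2 change -5.15, SE 0.27, adjusted p = 1.6e-05). Bex2 had 2.53 and 1.18 FPKM in pacSC, against 166 and 170.2 FPKM in priSG-A (log2 change -5.93, SE 0.34, adjusted p = 1.65e-05). In 450 of the 469 genes called lower, the rST mean was also below the priSG-A mean. This was not particular to the X. Of all 7067 genes called lower, 94% had their highest stage mean in priSG-A, and so above rST.

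Of the 100 X-linked genes called higher, 97 had a higher mean in rST than in pacSC. Over all 3573 genes called higher, 53.9% had their highest stage mean in rST. Akap4, a fibrous sheath protein of the flagellum, had 22.1 and 145 FPKM in pacSC, against 3.89 and 0.568 FPKM in priSG-A (log2 change 4.39, SE 0.90, adjusted p = 0.00238). It had 758 and 835 FPKM in rST. Of the 100, 90 were higher in pacSC replicate 2 than in replicate 1, and 87 were higher in priSG-A replicate 1 than in replicate 2, the libraries that also held more nuclear condensation RNA. The same replicate counts over all genes called higher were not taken, so they do not show what is particular to the X. The 100 X-linked genes summed to 691 and 1416 FPKM in pacSC, against 62.4 and 18.8 FPKM in priSG-A. The 3 whose rST mean was not higher were Tsx, Dmrtc1b and 4930408F14Rik. Tsx had 7.32 and 5.23 FPKM in pacSC, against 1.88 and 2.2 FPKM in priSG-A. Dmrtc1b had 1.5 and 1.41 FPKM in pacSC, against 0.322 and 0.2 FPKM in priSG-A. 4930408F14Rik had 2.35 and 7.16 FPKM in pacSC, against 0.0627 and 0.0679 FPKM in priSG-A. Akap4, Dmrtc1b and 4930408F14Rik were chosen after their values were seen. Many X-linked genes of this kind belong to multicopy families, so reads may have been split between copies.

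On the Y chromosome 6 of 8 tested genes were lower (median -2.42). Rbmy1a1, a germ cell RNA-binding protein, had 6.89 and 4.88 FPKM in pacSC, against 139 and 134 FPKM in priSG-A (log2 change -4.33, SE 0.33, adjusted p = 2.59e-05). The helicase gene Ddx3y had 1.42 and 2.02 FPKM in pacSC, against 20.4 and 23 FPKM in priSG-A. Eif2s3y, Kdm5d, Usp9y and Uty were also lower. The zinc finger genes Zfy1, with 0.914 and 1.1 FPKM in pacSC, against 1.35 and 1.56 FPKM in priSG-A, and Zfy2, with 1.08 and 1.02 FPKM in pacSC, against 1.25 and 1.93 FPKM in priSG-A, did not pass the test. These genes were named after their values were seen.

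Most DNA methylation genes were lower. Of 14 tested, 11 were lower and 1 was higher (median -1.67). The de novo methyltransferase Dnmt3b had 1.4 and 1.59 FPKM in pacSC, against 31.6 and 29.9 FPKM in priSG-A (log2 change -3.67, SE 0.24, adjusted p = 1.99e-05). Dnmt3a had 0.758 and 0.565 FPKM in pacSC, against 20.4 and 18.3 FPKM in priSG-A. The maintenance enzyme Dnmt1 had 21.6 and 19.8 FPKM in pacSC, against 102 and 89.9 FPKM in priSG-A (log2 change -2.16, SE 0.28, adjusted p = 0.000215). The dioxygenase Tet3 had 0.318 and 0.182 FPKM in pacSC, against 6.24 and 5.9 FPKM in priSG-A. The histone demethylase Kdm1b had 1.01 and 1.13 FPKM in pacSC, against 18.5 and 17.4 FPKM in priSG-A. The 1 rise was Zfp57, a protector of imprints, with 1.84 and 3.33 FPKM in pacSC, against 0.661 and 0.65 FPKM in priSG-A (adjusted p = 0.0246). Its call was lost without priSG-A replicate 1, priSG-A replicate 2 or pacSC replicate 2.

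Imprinted genes were lower in 11 of 14 tested, and 3 were not called (median -1.80). The noncoding RNA H19 had 0.273 and 0.362 FPKM in pacSC, against 25.1 and 28.6 FPKM in priSG-A (log2 change -4.40, SE 0.31, adjusted p = 2.17e-05). Ndn, a MAGE family gene, had 0.595 and 0.686 FPKM in pacSC, against 19.9 and 19 FPKM in priSG-A. The receptor Igf2r had 1.95 and 2.17 FPKM in pacSC, against 25.8 and 24.1 FPKM in priSG-A. Grb10, with 6.47 and 6.94 FPKM in pacSC, against 10.2 and 9.82 FPKM in priSG-A, did not pass the test. The Sertoli and stromal cell sums moved the same way, and their part in these falls was not tested.

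The 12 largest rises were below 5 FPKM in priSG-A replicate 2 and higher in replicate 1. Fabp9, the testis fatty acid binding protein, had 2677 and 2600 FPKM in pacSC, against 43 and 4.91 FPKM in priSG-A (log2 change 7.35, SE 0.85, adjusted p = 0.000117). The gluconeogenic enzyme Fbp1 had 542 and 453 FPKM in pacSC, against 5.68 and 0.416 FPKM in priSG-A (log2 change 7.34, SE 0.69, adjusted p = 4.74e-05). The acrosin inhibitor Spink2 had 1094 and 919 FPKM in pacSC, against 13.2 and 1.94 FPKM in priSG-A. The pacSC replicates were close in all 3. The lactate dehydrogenase-like gene Ldhal6b had 699 and 610.5 FPKM in pacSC, against 8.06 and 1.03 FPKM in priSG-A. Spata4 had 520.4 and 469 FPKM in pacSC, against 6.37 and 0.276 FPKM in priSG-A. Cmtm2a, of the chemokine-like factor family, had 589 and 476 FPKM in pacSC, against 7.51 and 0.312 FPKM in priSG-A. Its relative Cmtm2b had 754 and 602 FPKM in pacSC, against 10.2 and 0.561 FPKM in priSG-A. The 12 also included Crisp2, 1700008K24Rik, Speer1-ps1, 4933402N22Rik and Gm3925, which changed by 7.28 to 7.84 on the log2 scale. Of the 277 genes at least 32-fold higher, 275 were higher in priSG-A replicate 1 than in replicate 2, by a median factor of 2.03 on FPKM + 1. The same count over all tested genes was not taken.

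The largest falls included 2 short entries, 2 Sertoli cell genes and 4 Hist1 genes. Mir703 was listed at 0 in both pacSC libraries, against 4254 and 944 FPKM in priSG-A. Mir680-2 had 0 and 475 FPKM in pacSC, against 1103 and 2190 FPKM in priSG-A, and its call was lost without priSG-A replicate 1 or priSG-A replicate 2. FPKM of such short entries is imprecise. Amh, the anti-Müllerian hormone of Sertoli cells, had 0.711 and 0.368 FPKM in pacSC, against 81.7 and 61.1 FPKM in priSG-A (log2 change -5.55, SE 0.23, adjusted p = 1.6e-05). Aard, also on the Sertoli cell list, had 22.9 and 13.5 FPKM in pacSC, against 684 and 744 FPKM in priSG-A (log2 change -5.26, SE 0.34, adjusted p = 1.87e-05). Both were far apart between the stages. The LIM protein gene Pdlim4 had 0.335 and 0.482 FPKM in pacSC, against 49.1 and 51.4 FPKM in priSG-A. AI848285 had 0.443 and 0.194 FPKM in pacSC, against 48.2 and 55.1 FPKM in priSG-A. The Hist1 members were Hist1h1b, given above, Hist1h2bg, Hist1h2bn and Hist1h3h, of which the last had 12.7 and 10.3 FPKM in pacSC, against 418 and 422 FPKM in priSG-A.

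Markers of other testis cells differed between the stages in their own ways. Sertoli cell genes were lower in 25 of 27 tested and higher in 1 (median -3.57), and the count of 25 was the same without priSG-A replicate 1 and pacSC replicate 2. Clu, an abundant Sertoli cell protein, had 63.5 and 95.7 FPKM in pacSC, against 774 and 831 FPKM in priSG-A (log2 change -3.35, SE 0.32, adjusted p = 4.64e-05). Vim, the vimentin of somatic cells, had 7.83 and 4.99 FPKM in pacSC, against 152 and 145 FPKM in priSG-A. Leydig cell genes had 1 higher, 2 lower and 7 not called of 10 (median -0.97). Insl3, a peptide hormone of these cells, had 17.3 and 492 FPKM in pacSC, against 28.8 and 19.2 FPKM in priSG-A. Without pacSC replicate 2, 7 of the 10 were lower (median -2.39), and without pacSC replicate 1, 4 were higher (median 0.58). Fabp3, a fatty acid binding protein on the Leydig cell list, had 5.43 and 289 FPKM in pacSC, against 91.1 and 80.2 FPKM in priSG-A.

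Peritubular and stromal genes were lower in 8 of 15 and higher in 1 (median -1.08), with 4 lower without priSG-A replicate 2. They summed to 66.1 and 92.2 FPKM in pacSC, against 430.0 and 471 FPKM in priSG-A. The matrix protein Sparc, with 18.9 and 25.1 FPKM in pacSC, against 318 and 274 FPKM in priSG-A (log2 change -3.70, SE 0.36, adjusted p = 5.02e-05), was the largest fall among them. Macrophage genes were lower in 8 of 9 tested, in 2 after quantile normalization, and in 3 without priSG-A replicate 1 and pacSC replicate 2. The 1 rise, Aif1, with 17.6 and 80.1 FPKM in pacSC, against 2.99 and 1.22 FPKM in priSG-A, is also high in round spermatids in these files, with 422 and 447 FPKM. Endothelial genes were lower in 9 of 11, in 5 after quantile normalization or median centring and in 5 without priSG-A replicate 1 and pacSC replicate 2. They summed to 11.1 and 8.56 FPKM in pacSC, against 35.4 and 42.2 FPKM in priSG-A. Of 2 tested erythroid genes 1 was lower, Hba-a1, with 0.779 and 0.168 FPKM in pacSC, against 10 and 8.3 FPKM in priSG-A.

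Across the 4 stages, the rises had their highest mean in 2 of them. Of the 3573 genes called higher, 1926 (53.9%) had their highest stage mean in rST, 1557 (43.6%) in pacSC and 90 (2.52%) in plpSC. Among the 7067 genes called lower, 6646 (94%) had their highest mean in priSG-A. Piwil1, Hist1h1t, Spo11, Pou5f2 and Hspa2 had their highest stage mean in pacSC. Crisp2, Pgk2, Ldhc and Prm1 had theirs in rST.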

How the data were processed

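Gene levels were deposited by the authors as FPKM with confidence bounds, with 1 file for each library. TopHat2 2.0.6, BWA, Cuffdiff and the build mm9 are listed in the submitters' processing notes, where no role or order is stated. No strand is stated, so overlapping antisense genes are not separable. Entries sharing a symbol were summed (728 entries of 259 symbols), which left 22552 symbols. Read totals are not given; depth was recovered as effective fragments by reading the bounds as 2 SD of counting error, so it is an estimate. Depth limits precision mainly near 1 FPKM.

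Genes with at least 1 FPKM in at least 2 of the 4 pacSC and priSG-A libraries (13316) were tested on log2(FPKM + 1) with limma 3.58.1 in R 4.3.3, modelling 4 stage means over all 8 germ cell libraries (4 residual degrees of freedom) and moderating variances with eBayes along a trend. Tests were two-sided. A gene was called where its p, adjusted by Benjamini-Hochberg over all tested genes, was under 0.05. The alternatives were other sets of libraries, pseudocount, filter, scaling, the replicate number as a block and leaving out each library; 2 more were added after seeing the data. Replicate numbers do not pair samples in the labels.

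The comparison, the 29 gene lists and the 33 pairs were chosen with earlier results of these data known. Of 628 listed genes 621 were in the files, some under older symbols. Genes were named by rule. The rule took the 12 largest rises and the 12 largest falls that were called, had libraries without overlap and averaged 20 FPKM or more where higher. From each list it took no more than 5 called genes in each direction and 3 others, and it added all pairs and 16 fixed genes. Promoters came from RefSeq (GRCm38.p6) and were matched by symbol or synonym; no mm9 coordinate was mixed with them. Lists of circular RNAs were not used. Python 3.11.15 with pandas 2.3.3, numpy 2.4.6 and matplotlib 3.10.9 served for the rest.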

Additional observations from a re-analysis of the deposited data

How the results depend on the processing

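The counts of genes called higher and lower kept within 1.5 times of 3573 and 7067 under every alternative run, between 2555 and 4504 higher and between 5009 and 8427 lower. Leaving out 1 library in turn gave 2919 to 3293 higher and 6144 to 6638 lower. The replicate block gave 3535 higher and 6967 lower, moved no count of calls by over 1.5 times and lost the calls of Msh5 and Prm1; the deviations of same-numbered libraries correlated at -0.19, and the crossed pairing, added after seeing the data, gave 3714 higher and 7198 lower in the 4 libraries alone. The difference between the X and autosome medians, -1.43, kept its sign in every alternative, with -2.39 at a pseudocount of 0.1, -0.94 without a filter, -2.20 with at least 5 FPKM and -1.19 after quantile normalization; the first follows from the pseudocount, which compresses low values less, the values at other filters from the genes tested, and the cause of the last was not tested. With single libraries left out it lay between -1.48 and -1.31.

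Of 309 named genes, 266 to 308 kept their direction and call under each alternative that tested all of them. Rfx3 turned to 0.50 and was called higher after quantile normalization, and Fabp3, lower but not called with all libraries, turned to 1.75 and was called higher without pacSC replicate 1 and was -3.75 without pacSC replicate 2; the cause was not tested. With at least 5 FPKM, 29 named genes were no longer tested. Calls that rest on small changes, such as those of Msh5, Birc5, Gins1, Syce2 and H3f3b, were lost under several alternatives. Some calls of large changes with replicates far apart were lost as well. Prm1 lost its call under 8 alternatives, Mir680-2 under 7, and Tnp1 and Tnp2 under 3 each. Depth limits what is said of genes near 1 FPKM, where 2 libraries per stage and the pseudocount set the size of the change.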

Other observations

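The retinoic acid pathway, which times the entry into meiosis, differed between its enzymes. Of 18 tested genes 14 were lower in pacSC, 3 were higher and 1 was not called (median -1.80, beside -0.71 for all tested genes). The synthesizing enzyme Aldh1a2 had 80.6 and 61.8 FPKM in pacSC, against 24.4 and 21.8 FPKM in priSG-A (log2 change 1.57, SE 0.29, adjusted p = 0.00148), and the retinal reductase Rdh11 had 185 and 159 FPKM in pacSC, against 10.7 and 7.14 FPKM in priSG-A (log2 change 4.14, SE 0.39, adjusted p = 4.81e-05). Lrat, which esterifies retinol for storage, was higher at a low level, with 1.82 and 2.02 FPKM in pacSC, against 0.322 and 0.308 FPKM in priSG-A. The receptor partner Rxra had 0.371 and 1.4 FPKM in pacSC, against 14.7 and 14.1 FPKM in priSG-A (log2 change -3.08, SE 0.30, adjusted p = 4.99e-05), the cellular binding protein Crabp1 had 3.95 and 3.62 FPKM in pacSC, against 133 and 128 FPKM in priSG-A (log2 change -4.78, SE 0.30, adjusted p = 1.87e-05), and the retinol uptake receptor Stra6 had 0.613 and 0.333 FPKM in pacSC, against 9.85 and 8.38 FPKM in priSG-A.

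TGF-beta and BMP signalling genes were lower in 20 of 24 tested and higher in 1, Id4 (median -2.05). The other ID genes went down: Id2 had 2.46 and 0.964 FPKM in pacSC, against 24.1 and 26.5 FPKM in priSG-A (log2 change -3.33, SE 0.41, adjusted p = 0.00016), and Id3 had 0.641 and 0.519 FPKM in pacSC, against 17.1 and 14.8 FPKM in priSG-A (log2 change -3.42, SE 0.32, adjusted p = 4.77e-05). The signal transducer Smad3 had 0.773 and 0.709 FPKM in pacSC, against 18.5 and 20.8 FPKM in priSG-A (log2 change -3.57, SE 0.22, adjusted p = 1.77e-05), whereas Smad1, with 8.81 and 6.67 FPKM in pacSC, against 7.72 and 6.83 FPKM in priSG-A, did not pass the test. The inhibin subunits Inha, with 10.3 and 10 FPKM in pacSC, against 142 and 122 FPKM in priSG-A, and Inhbb, with 1.98 and 1.25 FPKM in pacSC, against 59.3 and 56.1 FPKM in priSG-A, are products of Sertoli cells, whose summed markers were 230.3 and 233.8 FPKM in pacSC, against 3593 and 3654 FPKM in priSG-A; their part in these falls was not tested.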
